A study of Mus musculus with 15 samples.

Results

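The genes described here encode the proteins of the cytosolic ribosome. They were taken by symbol from the protein-coding models of GENCODE vM1 on the mm9 assembly, as Rpl, Rps or Rplp followed by a digit, or Rpsa, without the Rps6k kinases. Of 139 such models, 54 were single-exon models named -ps and were left out, which leaves 85 members of 22342 protein-coding genes. They comprise 45 proteins of the large subunit, 31 of the small subunit, and 9 paralogs or look-alikes that fit the symbol rule. The rule reads the symbol and the annotation and no peak. It misses ribosomal protein genes that have other names. The members lay on 19 chromosomes, 4 of them on chromosome X, and their median gene length was 3243 bp, against 15548 bp for the other 22257 protein-coding genes. Nested in 30 members were 58 small nucleolar RNA genes, whose products guide the modification of ribosomal RNA.

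Ribosomal protein genes are among the most highly transcribed genes of dividing cells, and their products are made in near equal amounts because each ribosome holds mostly a single copy of each. Their mRNAs begin with an oligopyrimidine tract, through which the growth kinase mTOR controls their translation. Single members matter to single blood lineages: mice without Rpl22 lose alpha-beta T cells, and human RPS19 mutations cause Diamond-Blackfan anaemia, a failure of red cell formation.

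The series concerns loop extrusion by cohesin in thymocytes that carry CD4 and CD8 but not CD69, which have not yet received a selection signal. The peak lists came from ChIP-seq of such primary cells of wild type C57BL/6 thymus, with 1 library for CTCF, 2 for Rad21 and 2 for H3K27ac; the age of the mice is not given in the labels. Not analysed here were 2 input samples and 8 Hi-C samples, which cover knockouts of CTCF, double knockouts of CTCF and Rad21, and wild type cells. CTCF is a sequence-specific protein that halts cohesin, Rad21 closes the ring of cohesin, and H3K27ac is an acetylated lysine of histone H3 that marks active promoters and enhancers. Whether the replicates are separate mice is not in the labels, and their spread may therefore be technical. A peak was assigned to a gene when it lay within 2000 bp of a transcription start site (TSS) of a protein-coding transcript of that gene. Distances were measured from 1 chosen TSS per gene, the start used by most of its coding transcripts. H3K27ac and Rad21 were called present where the peaks of both replicates overlapped in a shared region. Peak lists hold no read counts, so the depth behind each value is unknown. All 9 of the listed double-positive thymocyte markers that the annotation classes as protein-coding had promoter H3K27ac, among them Cd4, Cd8a and Rag1. Of the markers of other cells, 1 of 5 B cell markers and 1 of 5 erythroid markers (Klf1) had it, and none of the 6 myeloid and 5 thymic epithelial markers did.

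Sequences of 2 kinds carry the results below. The first are CTCF sites in promoters with high CTCF enrichment. They are shown because CTCF summits lay within 250 bp of the chosen start site more often in ribosomal protein genes than in other genes. Only sites with at most 2 mismatches are shown, so Rpl10a (CTCF fold 25.6, 3 mismatches) is left out. The sites shown thus do not stand for all members with CTCF. Each stretch is 30 bases of the mm9 reference, 5′ to 3′ on the strand that matches the CTCF core consensus best, with the 13 matched bases in capitals.
Rplp0: gctccgacCCAGCAGAGGGCAgcaggtctg
Rpl38: aatctgaaCCAGAAGAGGGCAgggctgctg
Rps3a: atctcgcgACACTAGCTGGCGgctcgtttc
Rpl5: tcctcctaCCGGCAGGGGGCGatagcccgc
The Rplp0 stretch lies at chr5:116009291-116009320 on the plus strand and has 0 mismatches to the consensus. The Rpl38 stretch at chr11:114529764-114529793 and the Rpl5 stretch at chr5:108329476-108329505, both on the plus strand, have 1 mismatch each. The Rps3a stretch at chr3:85946608-85946637 is read on the plus strand, opposite to the gene, and has 2 mismatches. The middle of the site lay 171, 60 and 31 bp upstream of the chosen TSS in Rplp0, Rpl38 and Rpl5, and 2 bp downstream of it in Rps3a.

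The second kind is the pyrimidine tract around the start site, shown because long runs were more frequent at the members than at other acetylated genes. The stretches shown all hold runs of at least 8 bases and do not stand for all members. Other members named below had shorter runs, such as 5 bases in Rplp2 and 7 in Rplp0. Each stretch is 30 bases of the mm9 reference on the gene's own strand, with the longest run of C and T within 50 bases of the chosen TSS in capitals.
Rpl11: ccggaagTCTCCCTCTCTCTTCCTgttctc
Rpl22: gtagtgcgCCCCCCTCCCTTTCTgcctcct
Rplp1: gcgtatatgaTCTTTTCCTCagctgccgcc
Rpl5: gcctacagccaCTCTTTCTCacgtcgcttg
Rpl38: tgatgaacgcaTCCTTTCTggtcctttgca
The runs hold 17 bases in Rpl11, 15 in Rpl22, 10 in Rplp1, 9 in Rpl5 and 8 in Rpl38. They start 13, 1 and 6 bases downstream of the chosen TSS in Rpl11, Rpl22 and Rpl5, and 2 and 24 bases upstream of it in Rplp1 and Rpl38. The Rpl38 run lies wholly upstream of the chosen TSS, and so outside an mRNA that begins there. The stretches lie at chr4:135609273-135609302 (Rpl11, minus strand), chr4:151699955-151699984 (Rpl22, plus), chr9:61762328-61762357 (Rplp1, minus), chr5:108329516-108329545 (Rpl5, plus) and chr11:114529803-114529832 (Rpl38, plus).

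Nearly every ribosomal protein gene had an acetylated promoter. A shared H3K27ac region lay at 81 of the 85 members, or 95.3%, against 40.7% of the other protein-coding genes. All 76 members that encode a standard ribosomal protein had one, and the 4 without it were paralogs. These were Rpl10l, which stands in for Rpl10 in male germ cells, Rpl39l, which is expressed in the testis, Rpl3l, which is expressed in muscle, and Rps4y2. None of the 4 had a Rad21 peak in either list, and Rpl3l alone had a CTCF peak, with a fold enrichment of 2.65. That peak had a listed −log10 q of 0 and a summit 6910 bp downstream of the chosen TSS. The other 5 models of the paralog group did have H3K27ac: Rpl22l1, Rpl36al, Rpl7l1, Rps27l and Rps19bp1, the last of which encodes a protein that binds Rps19 and is no part of the ribosome. The 81 regions were all distinct, with no region assigned to more than 1 member. The count rests on weak peaks of the H3K27ac lists. At a −log10 q of at least 2 in both lists it was 34 members, and 14.6% of other genes.

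Pseudogene copies of the same genes did not carry the mark in this way. H3K27ac was found at 3 of the 54 left-out single-exon models (Rpl26-ps4, Rpl7a-ps8 and Rps26-ps1), or 5.56%. It was found at 5 of 107 models that the annotation itself classes as pseudogenes, or 4.67%. Reads from near-identical copies may be placed on either copy or dropped, and how the authors placed them is not given in the sources used here.

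The acetylated regions at ribosomal protein promoters were of ordinary width, with few very wide ones. Width was taken from the widest shared region within 2000 bp of any coding TSS of the gene. The median width was 1516 bp in members and 1673 bp in other genes. The interquartile range was 1190 to 2106 bp in members, against 1105 to 2704 bp in other genes. In the single lists the medians were 1506 bp in members and 1542 bp in other genes in replicate 1, and 1039 bp and 1036 bp in replicate 2. A region wider than 4000 bp was found at 2 members, or 2.47%, and at 13% of other genes. From the chosen TSS the region reached a median of 431 bp upstream and 1055 bp downstream in members, against 588 bp and 965 bp in other genes. This widest region covered the chosen TSS in 65 of 81 members, and in 81.2% of other genes. Narrower regions at the chosen TSS were not counted here. The groups thus differed in their wide tail more than in their middle.

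The widest regions included those of Rps14 (4736 bp), Rps13 (3646 bp), Rpl24 (3537 bp), Rps16 (3389 bp) and Rpl7a (3381 bp). Rps14, Rps13 and Rps16 are small subunit proteins, and Rpl24 and Rpl7a are large subunit proteins. The widest Rpl24 region lay 6878 bp downstream of its chosen TSS, beside another annotated start, and that of Rpl13a lay 6984 bp downstream. No other member had its widest region more than 2000 bp from the chosen TSS. When only the chosen TSS defined the promoter, all 81 members still had a shared region, Rpl24 and Rpl13a included. The 4 narrowest were Rpl22 (424 bp), Rpl22l1 (426 bp), Rplp0 (507 bp) and Rps27 (573 bp). Rpl22, which binds RNA and is needed by alpha-beta T cells in mice, and its paralog Rpl22l1, which can take its place in the ribosome, thus had the narrowest regions of all 81. Both genes had a weak H3K27ac peak in 1 list. The −log10 q of the highest peak was 0.848 at Rpl22 in replicate 2 and 0.632 at Rpl22l1 in replicate 1. A link between width and role was not tested. In the 16 members with the TSS of another protein-coding gene within 2000 bp the median width was 1785 bp, against 1467 bp in the 65 acetylated members without such a neighbour.

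H3K27ac fold enrichment at the members was moderate and varied between replicates. Its median was 2.72 in members and 2.85 in other genes in replicate 1, and 3.25 and 3.02 in replicate 2. Member values ran between 1.44 (Rpl8) and 16.6 (Rpl38) in replicate 1 and between 1.69 (Rpl5) and 12.3 (Rps13) in replicate 2. The fold of the 2 lists differed by more than 2 times at 23 of the 81 members, or 28.4%, and at 32.8% of other genes. Rpl38 itself had 16.6 in replicate 1 and 3.92 in replicate 2, and Rps13 had 2.42 and 12.3. The order of single members by H3K27ac fold is therefore not stable between these lists.

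**Figure D1:**
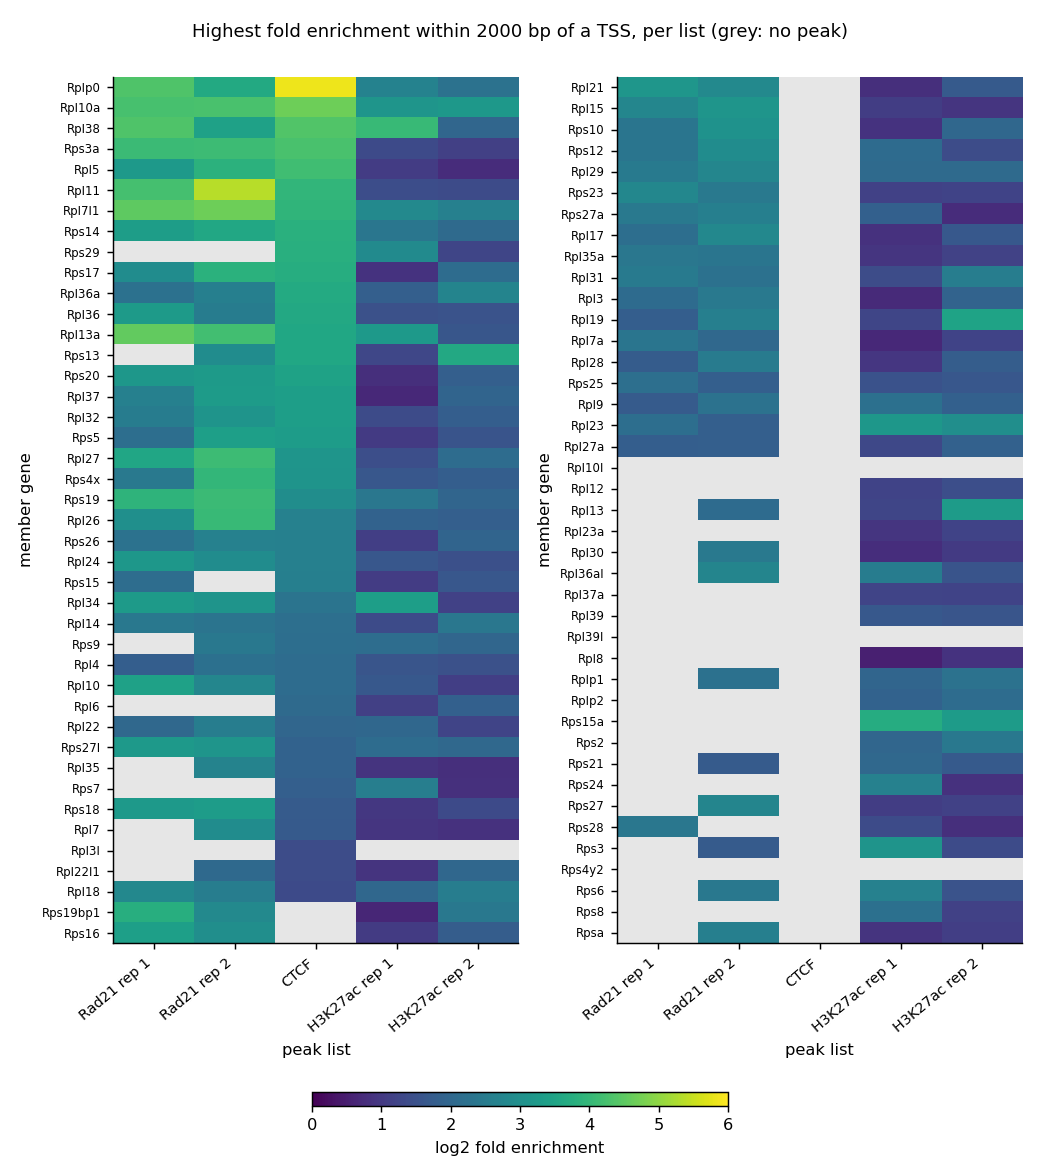
Highest fold enrichment (log2 colour scale) of a peak within 2000 bp of a TSS for the members, in the 2 Rad21 lists, the CTCF list and the 2 H3K27ac lists; grey cells have no peak. Rows run by falling CTCF fold and then Rad21 fold, so Rplp0 stands first, the members without a CTCF peak follow, and 4 rows are empty in both H3K27ac columns.

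With all listed peaks, cohesin was about as frequent at ribosomal protein promoters as at other acetylated promoters. A shared Rad21 region was present at 47 of the 81 acetylated members, or 58%, against 59.3% of 9051 other genes with promoter H3K27ac. In replicate 1 a Rad21 peak was present at 54 members, or 66.7%, against 68.2% of other genes. In replicate 2 it was present at 66 members, or 81.5%, against 82.4%. The difference between members and other genes was thus smaller than that between the replicates. No Rad21 peak in either list was seen at 13 members, or 16%, against 12.8% of other genes. At a −log10 q of at least 5 for Rad21, a shared region was present at 27 members, against 40.8% of other genes. The difference in share was then −7.46 percentage points.

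Rad21 enrichment at the members was somewhat lower than elsewhere. The median fold was 6.42 in members and 6.96 in other genes in replicate 1, and 6.78 and 7.61 in replicate 2. Over both lists (geometric mean of the medians) this was 6.60 in members and 7.28 in other genes, and 6.23 in members without the paralogs. With genes near another TSS left out of both sides, a comparison added after seeing the data, the medians were 7.56 in members and 7.21 in other genes in replicate 1, and 7.03 and 7.71 in replicate 2, so the 2 lists then differed in direction. Of the 52 members with a peak in both lists, 5 differed by more than 2 times between them, or 9.62%, close to the 9.43% of other genes.

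The 8 members with the highest Rad21 fold all had a CTCF peak as well. No matching share was counted for other genes, whose median Rad21 fold was also higher with CTCF, as given below. Rpl11, which with Rpl5 and the 5S RNA forms a particle that binds the p53 regulator Mdm2, had 18.6 in replicate 1 and 40.8 in replicate 2. Rpl7l1, a paralog of Rpl7, had 22.9 and 25.8.

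Of this pair, Rpl7l1 was the closer between the lists. Rpl13a, which lies in the large subunit and in human monocytes also represses mRNAs of inflammation once released from the ribosome, had 23.6 in replicate 1 and 18.1 in replicate 2. These Rad21 summits lay 73 and 72 bp upstream of its chosen TSS, while its highest CTCF summit lay 7330 bp downstream, at another start. Each of its 2 shared Rad21 regions overlapped a CTCF peak, so CTCF of lower fold was also listed at the chosen TSS. Rpl10a had 18.97 and 19.3, and Rps3a had 17.1 and 17.4, so these members were near equal in the lists. Rps19 had 15.1 and 16.98. Rplp0, the base of the ribosomal stalk that recruits elongation factors, had 20.2 and 12.4. These members were named for their high Rad21 fold over both lists, so values above the member medians follow largely from that choice.

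**Figure D2:**
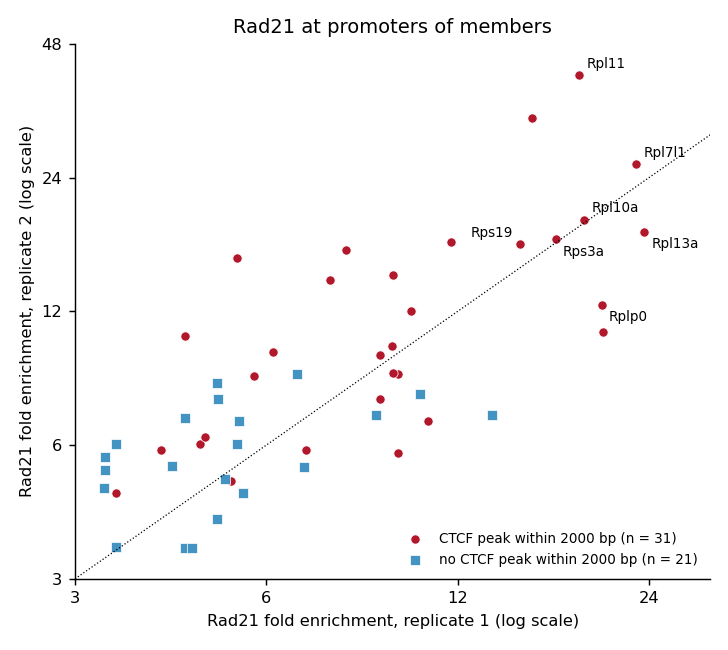
Rad21 fold enrichment in replicate 1 (x axis) and replicate 2 (y axis), both on log scales, at the 52 members with H3K27ac and a Rad21 peak in both lists; circles have a CTCF peak within 2000 bp (31 members), squares have none (21 members), and the dotted line marks equal values. The labelled members, which are among the 8 with the highest fold, are all circles.

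Members without any Rad21 peak included proteins of both subunits. By symbol the first 12 of the 13 were Rpl12, Rpl23a, Rpl37a, Rpl39, Rpl6, Rpl8, Rplp2, Rps15a, Rps2, Rps24, Rps29 and Rps7. Rpl12 and Rplp2 are parts of the stalk base and the stalk. H3K27ac was present at each, with a fold of 13.05 in replicate 1 and 9.78 in replicate 2 at Rps15a, and of 1.437 and 1.838 at Rpl8. Among these 12, CTCF was listed at Rps29 (fold 13.7), Rpl6 (4.22) and Rps7 (3.52, with a −log10 q of 0.974).

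Large subunit genes had a shared Rad21 region more often than small subunit genes. It was present at 31 of 45 large subunit members, or 68.9%, and at 13 of 31 small subunit members, or 41.9%. The same order held in each list. In replicate 1 a peak was present at 73.3% of large and 58.1% of small subunit members, and in replicate 2 at 84.4% and 74.2%. Without a CTCF peak the shares were 12 of 22 large and 4 of 17 small subunit members, and with one they were 19 of 23 and 9 of 14. In the single lists the gap without CTCF was narrower, at 13 of 22 large and 8 of 17 small subunit members in replicate 1, and at 16 of 22 and 12 of 17 in replicate 2. CTCF itself differed less, at 51.1% of large and 45.2% of small subunit members. No test of this difference was made, and the split was one of 3 described within the members.

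The other splits were smaller for Rad21. Hosts of small nucleolar RNA genes had Rad21 at 15 of 30, or 50%, and the other acetylated members at 32 of 51, or 62.7%. CTCF was present at 11 of the 30 hosts, or 36.7%, and at 29 of the 51 others, or 56.9%. Members with another TSS within 2000 bp had Rad21 at 7 of 16 and CTCF at 5 of 16, against 40 and 35 of 65 for those without.

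CTCF was found somewhat more often at ribosomal protein promoters than at other acetylated promoters, and its summit was more often within 250 bp of the start site. A CTCF peak was present at 40 of 81 members, or 49.4%, against 39.3% of other genes. The CTCF list has no replicate. Its median fold was 8.68 at members and 6.84 at other genes. A q above 0.05 was listed for 7 of the 40 members' peaks, or 17.5%, and for 21.5% of those of other genes. At a −log10 q of at least 5 the count was 26 members, against 22.9% of other genes.

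Where CTCF was present, its highest summit lay a median of 84.5 bp upstream of the chosen TSS in members and 2 bp upstream in other genes. These medians are signed and give the side of the start, not the closeness to it. The summit was upstream in 30 of 40 members, or 75%, against 50.2% of other genes with CTCF. It lay within 250 bp of the chosen TSS in 23 of all 81 members, or 28.4%, against 13.5% of other genes. Among genes with CTCF alone, this was 23 of 40 members and 1219 of 3557 other genes. The summit lay 0 to 100 bp upstream in 14 of all 81 members, or 17.3%, against 4.73% of other genes. These distances were chosen after seeing the data. When only the chosen TSS defined the promoter, the shares within 250 bp were 29.6% in members and 14.1% in other genes, and the medians were 93 bp and 47 bp upstream. The position of an annotated start also sets these distances, and its part in the result was not tested.

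**Figure D3:**
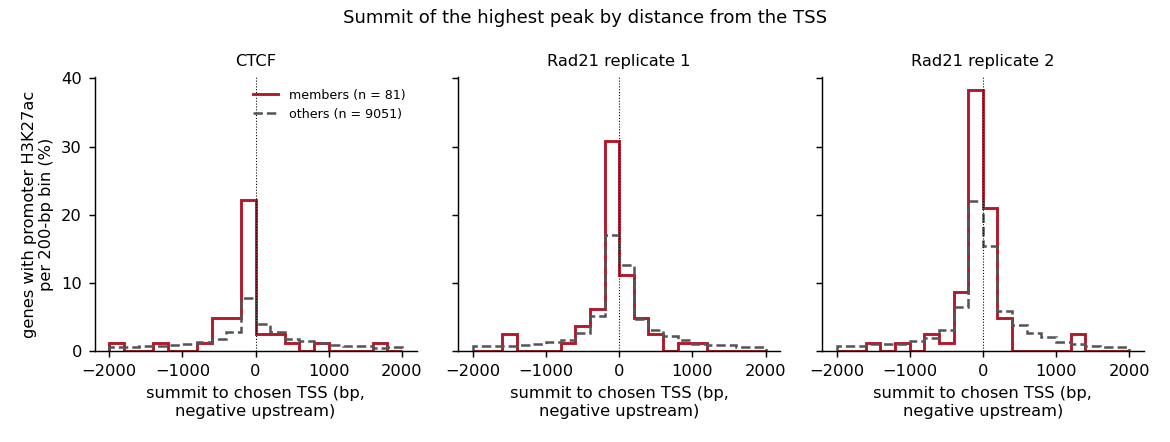
Percent of genes with promoter H3K27ac whose highest peak summit falls in each 200-bp bin of distance from the chosen TSS (x axis, bp, negative upstream), for the 81 members (solid line) and 9051 other genes (dashed line), in the CTCF list and both Rad21 lists. In all 3 lists the members peak in the bin just upstream of the TSS, and the members' share there is above that of other genes.

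The highest CTCF enrichment was at Rplp0, whose fold of 57.2 compares with 70.9 for the highest of all other genes with promoter H3K27ac; its summit lay 158 bp upstream of the chosen TSS, at the site with no mismatch shown above. Rpl10a followed with 25.6 and a summit at the TSS itself, 0 bp away, and the best match near its summit had 3 mismatches. Rpl38, which in mice is needed for the translation of Hox mRNAs, had 20.7 at 59 bp upstream. These 3 are the members with the highest CTCF fold, so their place above the member median of 8.68 follows from that choice.

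Rps3a had 19.4 at 38 bp upstream. The partners of the 5S particle came next, Rpl5 with 18.01 at 25 bp upstream and Rpl11 with 15.5 at 88 bp upstream. Rpl7l1 had 15.2 at 534 bp upstream and Rps14 had 13.9 at 172 bp upstream. In 7 of these 8 members the summit thus lay within 250 bp of the chosen TSS. A match to the core consensus with at most 2 mismatches lay within 50 bp of the summit in 22 of the 40 members with CTCF, or 55%, against 59% of other genes. An exact match was found at 3 members, Rplp0 and Rps4x among them, or 7.5%, against 5.85%.

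Rad21 followed CTCF at the members much as it did elsewhere. With a CTCF peak, 30 of 40 members had shared Rad21, or 75%, against 82.5% of other genes. Without one, 17 of 41 had it, or 41.5%, against 44.2%. The median Rad21 fold with CTCF was 9.46 in members and 9.77 in other genes in replicate 1, and 9.65 and 11.1 in replicate 2. Without CTCF it was 5.03 in members and 5.58 in other genes in replicate 1, and 5.38 and 6.49 in replicate 2. At 10 members CTCF was listed with no shared Rad21 region.

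A shared Rad21 region that overlapped no CTCF peak was present at 22 members, or 27.2%, against 37.6% of other genes. The count depends on the Rad21 list: by replicate 2 alone it was 50 members and 67.2% of other genes, and by replicate 1 alone 30 members and 49.3%. All Rad21 regions of the promoter were CTCF-free at 19 members, or 23.5%, against 28.8% of other genes. The 22 members with at least 1 CTCF-free region were also set out by width of the acetylated region. Among regions wider than 3000 bp the count was 2 of 6 members and 62.9% of other genes. Between 2000 and 3000 bp it was 8 of 17 members, or 47.1%, and 43.5%, and between 1500 and 2000 bp it was 7 of 19 members, or 36.8%, and 35.6%. Between 1000 and 1500 bp it was 3 of 25 members, or 12%, against 28.4%, and up to 1000 bp it was 2 of 14 members, or 14.3%, against 18.2%. The members also had CTCF more often than other genes, as given above. The part of width and of CTCF in the difference was not tested.

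Rad21 summits, like those of CTCF, lay close to and mostly upstream of the start site. The median was 46.5 bp upstream in members and 3 bp downstream in other genes in replicate 1, and 50.5 bp upstream and 4 bp upstream in replicate 2. Of the members with a Rad21 peak, 70.4% in replicate 1 and 80.3% in replicate 2 had the highest summit within 250 bp of the chosen TSS, against 48.5% and 50.3% of other genes. With only the chosen TSS these shares were 71.7% and 80.3% in members and 53.5% and 54.9% in other genes. The summits of both lists lay within 50 bp of each other at 22 of 31 members with CTCF, and at 4 of 21 without it. These last counts have no matching values for other genes, so they describe the members only.

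Members with known roles beyond the ribosome or in blood cells showed no common pattern of cohesin. Rpl22 had weak Rad21 peaks in both lists, with folds of 4.09 and 5.85, and a weak CTCF peak of 3.96 located 454 bp downstream. Rpl22l1 had no Rad21 peak in replicate 1, a fold of 4.13 in replicate 2, and a CTCF peak of 2.61. That CTCF peak had a listed −log10 q of 0 and a summit 1645 bp downstream. Rps19 had strong Rad21, as given above, at 368 and 358 bp upstream, with a CTCF peak of 7.63 at 387 bp upstream.

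These 3 members span weak and strong binding. Rpl10, which is added late in the assembly of the large subunit, had Rad21 folds of 10.8 and 6.78 within 26 bp of the chosen TSS. Rps6, the target of the S6 kinases, Rps3, which lines the mRNA entry channel, and Rpsa, also known as the laminin receptor, each had no Rad21 peak in replicate 1. In replicate 2 their folds were 5.27, 3.31 and 6.03. None of these last 3 had CTCF.

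The stalk proteins were split in the same way. Rplp1, which forms the flexible part of the stalk with Rplp2, had no Rad21 peak in replicate 1, a fold of 4.74 in replicate 2 and no CTCF peak, and Rplp2 had none of either. Rplp0 stood at the other end of the range. Of the paralogs with H3K27ac, Rps27l, a p53 target, had Rad21 folds of 9.50 and 8.72, Rps19bp1 had 13.6 and 7.03, and Rpl36al had a peak in replicate 2 alone with 6.68.

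Other genes of protein synthesis and turnover give a scale for these shares. The mitochondrial ribosomal protein genes, which build the separate ribosome of that organelle, had H3K27ac at 74 of 77. Among these, Rad21 was present at 63.5%, CTCF at 32.4% and CTCF-free Rad21 at 39.2%. Proteasome subunit genes had H3K27ac at 38 of 42, with Rad21 at 65.8%, CTCF at 36.8% and CTCF-free Rad21 at 42.1%. CTCF summits within 250 bp were found at 12.2% of the mitochondrial and 18.4% of the proteasome genes, below the 28.4% of the cytosolic ribosomal protein genes. The median CTCF summit was upstream of the chosen TSS in these lists too, at −103 bp in the mitochondrial and −248.5 bp in the proteasome genes, and at −50 bp in the ribosome assembly and −246 bp in the elongation and initiation factor genes. Rad21 summits within 250 bp made up 61.5% and 65.1% in replicates 1 and 2 at the mitochondrial genes and 63% and 63.6% at the proteasome genes, which lie between the shares of the members and of all other genes.

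Smaller lists varied. All 11 genes of translation elongation and initiation factors had H3K27ac, 9 of them with Rad21 and 3 with CTCF. Of 20 ribosome assembly genes, 19 had H3K27ac, 9 of these with Rad21 and 7 with CTCF. Fau and Gnb2l1, ribosomal protein genes that the symbol rule misses, had H3K27ac and CTCF-free Rad21 and no CTCF peak, with Rad21 folds of 7.36 and 7.88 at Fau and 5.51 and 6.27 at Gnb2l1. Of the 10 S6 kinase models that the symbol rule leaves out, 8 had H3K27ac. Differences between the members and these lists were not tested.

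**Figure D4:**
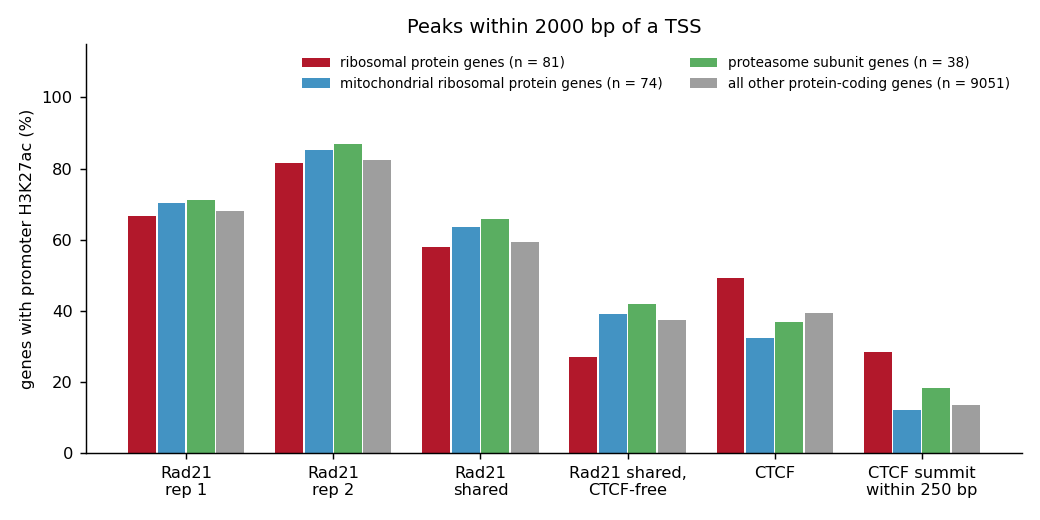
Percent of genes with promoter H3K27ac that have a Rad21 peak in each replicate, a shared Rad21 region, a shared CTCF-free Rad21 region, a CTCF peak, and a CTCF summit within 250 bp of the chosen TSS; bars from left to right are the 81 members, 74 mitochondrial ribosomal protein genes, 38 proteasome subunit genes and 9051 other protein-coding genes. The members' bars are above those of the other genes for CTCF and for CTCF near the TSS, and below them for CTCF-free Rad21.

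The DNA around the start sites held longer pyrimidine runs in the members than in other acetylated genes. The longest run of C and T within 50 bases of the chosen TSS had a median of 8 bases in members and 6 in other genes. It reached at least 8 bases in 50 of 81 members, or 61.7%, against 32.3% of other genes, and in 35.8% of all protein-coding genes. A run of at least 12 bases was found in 16 members, or 19.8%, against 8.22%. This window was chosen after seeing the data. A run of at least 5 bases at the chosen TSS itself, counted within 2 bases of it, was no more frequent, at 17 members or 21%, against 21.6% of other genes. Counted at any annotated coding TSS it was found at 41 of 81 members, against 37.6% of other genes, and so was more frequent in members.

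Runs of at least 8 bases were found at 29 of 45 large and 20 of 31 small subunit members, at 64.4% and 64.5%. The paralogs had 1 of 5. Factor genes of elongation and initiation had 7 of 11, ribosome assembly genes 36.8%, mitochondrial ribosomal protein genes 29.7% and proteasome genes 31.6%. A link between these DNA runs and the oligopyrimidine tracts of mRNAs was not tested. Within 50 bases of the chosen TSS, the longest run among the members was 21 bases, in Rpl7a, and that among other acetylated genes was 79. The Rpl7a run starts 29 bases downstream of the chosen TSS and reaches the edge of the window, so the full run may be longer.

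**Figure D5:**
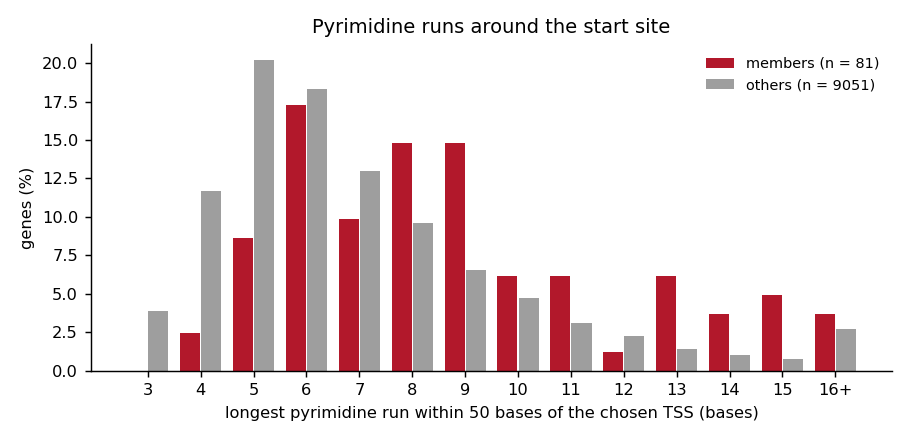
Percent of genes (y axis) by length of the longest run of C and T within 50 bases of the chosen TSS (x axis, bases, with 16 or more pooled), for the 81 acetylated members and 9051 other acetylated genes. The members' bars are higher at 8 and 9 bases (14.8% each, against 9.61% and 6.56%) and lower at 3 to 5 bases.

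Short promoter motifs were searched on both strands from 250 bases before to 50 bases after the chosen TSS, with overlaps between motifs allowed. The letters CCGGAAG, bound by ETS factors and GABP, were found in 23 members, or 28.4%, 21.1% of other acetylated genes and 10.8% of all promoters. AAGATGG, the core bound by YY1, was found in 10 members, or 12.3%, 8.11% of other acetylated genes and 6.78% of all promoters. GGGCGG, bound by SP factors, was found in 41 members, or 50.6%, 64.2% of other acetylated genes and 44% of all promoters. TATAAA, the TATA box, was found in 10 members, or 12.3%, 6.47% of other acetylated genes and 13.5% of all promoters. The median GC content of the window was 56% in members and 60.7% in other acetylated genes. A match is a description of the letters and not of binding.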

How the data were processed

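ChIP-seq peak lists of wild type thymocytes were used: 1 CTCF, 2 Rad21 and 2 H3K27ac lists, 1 per library. The submitters' processing notes name, without roles, the build mm9 and MACS2 2.1.0, Bowtie 1.0.0, CASAVA 1.82 and 1.84, Juicer 0.7.5, HiC-Pro 2.7.8 and Bowtie2 2.3.2. How peaks were thresholded, and against which control, is not given in the sources used here. The deposited lists give each peak the authors' fold enrichment, a ratio used within a list to describe and rank peaks, with −log10 p and −log10 q values as deposited by the authors. The narrow lists add a summit, and the deposited score was not used.

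Of the autosomes and chromosome X, all peaks were used, with repeated coordinates counted once at the highest fold, which left 35345 CTCF, 38430 and 48462 Rad21 and 38700 and 24765 H3K27ac peaks. Replicate peaks that overlapped by at least 1 bp gave shared regions, and a Rad21 region that overlapped no CTCF peak was called CTCF-free. Sequences are from NCBIM37, the assembly of mm9, with GENCODE vM1. No test was run: shares and medians are set beside those of other genes. Assignment was tested on simulated data (Python 3.11.15, numpy 2.4.6, pandas 2.3.3). Named members are those without H3K27ac, the 8 highest by Rad21 and by CTCF, up to 12 without Rad21, the 6 widest and 4 narrowest regions, and members with known roles. Members and lists were chosen with earlier results of these data known. Some genes that the naming rule selects are not reported here.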

Additional observations from a re-analysis of the deposited data

How the results depend on the processing

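No fit with a replicate block was made, since no test was run; lists matched by replicate number are given below. Of 125 values under alternative settings, 105 stayed within the spread of replicates, the counting interval or 1.5 times the count. These limits are wide: 66 members with Rad21 by replicate 2 alone fell within them, against 47 in the main setting. The CTCF share of members exceeded that of other genes in all 11 alternatives, by 7.45 to 14.5 percentage points, and that of CTCF-free Rad21 was lower in all 13. The Rad21 share was higher in 7 and lower in 9 of 16, with differences from −7.46 to 3.83 percentage points.
At a −log10 q of at least 5 for Rad21 and CTCF, 27 members had Rad21, 26 CTCF and 10 CTCF-free Rad21, against 40.8%, 22.9% and 25.9% of other genes, and the median Rad21 fold was 8.70 in members and 8.74 in other genes. At a −log10 q of at least 2 for H3K27ac, 34 members had it, 21 of them with Rad21, against 14.6% of other genes and 62.7% of these.
CTCF-free Rad21 was found at 50 members and 66.1% of other genes by the replicate 2 lists of Rad21 and H3K27ac, a difference of −4.39 percentage points, and at 30 members and 47.2% by the replicate 1 lists, a difference of −10.2. Leaving out 1 Rad21 replicate gave 30 to 50 members, against 49.3% to 67.2% of other genes. Leaving out 1 H3K27ac replicate gave median widths of 1058 to 1508 bp. The median Rad21 fold was 6.23 without paralogs and 7.29 without members near another TSS, against 7.28 in all other genes and 7.46 in other genes with no TSS near.
The Rad21 summit offset was −44.5 bp in a 500 bp window, −53 bp at the stricter q, −57.8 bp from the nearest TSS and −38.5 bp with the TSS of all transcripts, the last added after seeing the data. A pyrimidine run was found at 28 members (other genes 31.4%) with at least 4 bases, 11 (9.14%) with at least 7 and 41 (37.6%) at any annotated TSS, and at 50 (32.3%) by the wider window added after seeing the data. The causes were not tested. The single CTCF list and the unknown depth limit all counts.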
